A study of Mus musculus with 6 samples.

Results

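Pycr1 and 8 other genes of amino acid metabolism (Aldh18a1, Prodh, Oat, Asns, Phgdh, Psat1, Psph and Chac1) were followed across the libraries of a mouse intestine study, 9 genes of 32219 in the table. Pycr1 was selected on its measured KO and WT levels in these same libraries, which earlier work had shown to stand apart. The other 8 were listed for their place in proline, serine, asparagine and glutathione metabolism, with those earlier values already known. The series holds 3 libraries labelled KO and 3 labelled WT, and the comparison asked whether Pycr1 moved alone or together with other amino acid synthesis genes. Per the labels, all 6 are polyadenylated RNA of primary intestinal tissue with epithelium, immune cells and enteric neurons. The labels name neither the deleted gene and its allele nor the strain or age of the animals, and do not say whether each library came from its own animal, so every p-value measures only the spread between these libraries. The series title names Dhx9 and GPR41, which Ffar3 encodes.

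Proline is made from glutamate or from ornithine. Aldh18a1 encodes the enzyme that turns glutamate into pyrroline-5-carboxylate, Oat makes the same intermediate from ornithine, and reductases such as Pycr1 and Pycrl (also called Pycr3) convert it to proline. Prodh starts the way back to glutamate. The gut wall is an active site of glutamine, ornithine and proline exchange, and collagen takes up much of the proline that stromal cells use. Phgdh, Psat1 and Psph act in that order to make serine from a glycolytic intermediate, Asns makes asparagine, and Chac1 degrades glutathione. Many of these genes are known targets of ATF4, the transcription factor that cells raise when amino acids run short.

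Before any comparison, the library KO 1 had to be set aside. It listed no values for chromosomes 2 to 9, X, M and most of 19, and 9729 genes above 0 against 22061 to 22768 in the other 5 libraries. Of the 9 genes, only Pycr1 on chromosome 11 and Prodh on chromosome 16 lie where it has values, and the zeros that it lists for the other 7 were treated as missing. Where it has values they stood 2.12 times above the other libraries, and rescaled values were divided by that factor. KO 1 also differed in regional markers. Gata4, a transcription factor of the proximal gut, was at 5.19 in KO 1 after rescaling and 0.43 to 0.63 in the others, and Fabp6, the ileal bile acid binding protein, at 3.91 and 8.16 to 8.76. The design text names the duodenum, which the high Fabp6 and low Gata4 of the 5 other libraries go against. KO 2 and KO 3 were therefore compared with WT 1, WT 2 and WT 3, and KO 1 is given beside them. Values are log2(abundance + 1) as read from the deposited table, the log base being an assumption, and the depth of each library is unknown. The helicase gene Dhx9 had log2 values of 6.17 and 6.08 in KO 2 and KO 3, against 5.94, 6.01 and 5.97 in WT 1, WT 2 and WT 3, and Ffar3 was at 0.35 and 0.59 in KO 2 and KO 3, against 0.60, 0.18 and 0.46 in WT. The libraries also held both sexes: the Y-linked gene Ddx3y was at 3.91 in KO 2 and 3.98 in WT 2 and at 0.01 or below in KO 3, WT 1 and WT 3, which expressed Xist.

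Pycr1, the mitochondrial reductase of the last step of proline synthesis, stood far lower in the KO than in the WT libraries. Its log2 values were 1.04 in KO 2 and 0.99 in KO 3, against 2.35 in WT 1, 2.26 in WT 2 and 2.31 in WT 3. KO 1 was lower still after rescaling, at 0.73, and stood at 1.26 as deposited. All 3 KO libraries thus lay below all 3 WT libraries whether or not KO 1 was rescaled, and the groups did not overlap. The KO mean was 1.01 ± 0.04 (SD, n = 2) and the WT mean 2.31 ± 0.05 (SD, n = 3), a difference of -1.29 log2 units. On the linear scale the KO mean was 0.258 of the WT mean, or 0.194 if the table holds natural logs. The gap between the nearest KO and WT libraries was 1.22 log2 units, while the KO pair spanned 0.057 and the 3 WT libraries 0.091. These values chose the gene, so they are given as a description with no test. In whole tissue, fewer cells that express the gene and less RNA per cell cannot be told apart.

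By sex, the same selected values read as follows, and with every KO library below every WT library any such split had to show a difference. Between the libraries with Ddx3y, KO 2 stood 1.22 log2 units below WT 2, a difference of -1.22. Between the libraries with Xist, KO 3 differed from the mean of WT 1 and WT 3 by -1.34. Cell type markers were set beside these values, and none of their genes was called. The 6 epithelial markers had a median difference of 0.00, with values from -0.03 to 0.04, and the 6 markers of cycling cells one of -0.02. Leukocyte markers were above 0 for 6 of 6 genes, with a median of 0.31, and the groups overlapped for each: the B cell gene Cd79a was at 4.03 in KO 2 and 1.25 in KO 3, against 0.59, 3.10 and 0.31 in WT 1, WT 2 and WT 3. Fibroblast markers had a difference below 0 for 6 of 6 genes, with a median of -0.21, beside 0.03 over all genes tested. Of these, 3 were separate with KO lower, beside 3.75% of all genes. Endothelial markers had a difference below 0 for 3 of 4 genes, with a median of -0.11. Cldn5, an endothelial junction gene, was separate, at 1.42 and 1.23 in KO 2 and KO 3 and 1.85, 1.77 and 1.71 in WT. Markers of absorptive enterocytes had a median of 0.23 and those of adipocytes one of 0.45, with overlap for every gene of both lists. The part of these cell types in the Pycr1 values was not tested.

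**Figure D1:**
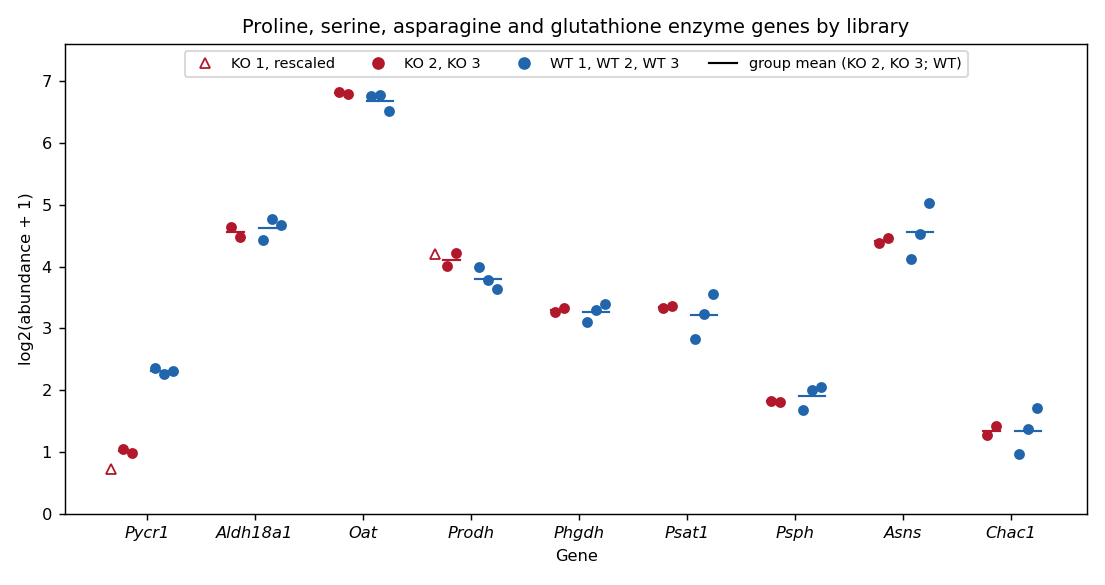
Log2 values of the 9 genes in each library, with filled points for KO 2 and KO 3 (red, left) and WT 1 to WT 3 (blue, right), horizontal lines for group means, and open triangles for KO 1 after rescaling where it has values. Pycr1 is the gene whose groups stand far apart, with KO at 1.04 and 0.99 and WT at 2.26 to 2.35.

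Among all 22178 genes tested, limma called 1 gene, or 0.00451%, at an adjusted p under 0.05, and it was none of the 8 genes besides Pycr1. That gene was the predicted gene Gm49380, with log2 values of 1.78 in KO 2 and 1.82 in KO 3, against 0 in WT 1, 0.07 in WT 2 and 0 in WT 3, whose exons overlap those of Rnf26 and Usp2. Limma called 0 genes lower in KO, so the lack of a call does not set any other gene apart from Pycr1. Groups did not overlap, with KO lower, for 832 genes (3.75%) and, with KO higher, for 2180 genes (9.83%). Only 5 genes (0.0225%) were both separated and at least 1 log2 unit lower in KO, Pycr1 among them. Where KO 1 has values, 156 of 10071 genes (1.55%) had all 3 KO libraries below all 3 WT libraries with KO 1 both as deposited and rescaled. The margin of 1 unit was chosen after the values were seen, and nothing is read from these counts about a gene that was picked for this contrast.

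Pycrl, the cytosolic reductase that serves the ornithine route, did not share the pattern of Pycr1. It was at 4.27 in KO 2 and 3.99 in KO 3, against 3.92, 4.32 and 4.20 in WT 1, WT 2 and WT 3, with KO 1 at 4.63 after rescaling. Both KO 2 and KO 3 fell inside the WT range, and the difference was -0.01.

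The enzymes that feed the reductases were not called. Aldh18a1 was at 4.65 in KO 2 and 4.48 in KO 3, against 4.43, 4.76 and 4.68 in WT 1, WT 2 and WT 3. Both KO values fell inside the WT range, and limma gave a difference of -0.06 ± 0.13 (SE, adjusted p = 0.99998). Oat was at 6.82 and 6.79 in KO 2 and KO 3, against 6.76, 6.78 and 6.52 in WT. The groups did not overlap but lay only 0.013 apart, and the difference was 0.12 ± 0.11 (SE, limma adjusted p = 0.99998). Without WT 3 it was 0.037. Both differences were smaller than the range of the 3 WT libraries.

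Prodh, the proline oxidase of the breakdown route, leaned the other way from Pycr1. It was at 4.006 in KO 2 and 4.22 in KO 3, against 3.997, 3.78 and 3.63 in WT 1, WT 2 and WT 3. KO 1, which covers the gene, was at 4.21 after rescaling, so all 3 KO libraries lay above the WT libraries, although KO 2 exceeded WT 1 by only 0.0087. The difference was 0.31 ± 0.14 log2 units (SE, limma adjusted p = 0.99998), which did not pass, and its 95% interval ran from -0.03 to 0.65. Without KO 3 it was 0.20. It was 0.23 between the libraries with Ddx3y and 0.40 between those with Xist.

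Of 11 genes listed for proline synthesis and breakdown, Prodh2 was listed at 0 in every library and was not tested. Of the 9 others besides Pycr1, 0 were called in either direction by limma over all genes. They ranged from -0.06 to 0.31 with a median of 0.11, beside 0.03 over all genes tested. Aldh4a1, which completes proline breakdown to glutamate, differed by 0.22 and overlapped between groups, with 2.45 and 2.91 in KO 2 and KO 3 and 2.56, 2.15 and 2.66 in WT. The peptidases that release proline from peptides were near 0 in difference, with Pepd at 0.07, Xpnpep1 at 0.12 and Xpnpep2 at 0.00.

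The 3 enzymes of the serine branch were not called. Phgdh, the first enzyme, was at 3.26 in KO 2 and 3.33 in KO 3, against 3.11, 3.30 and 3.39 in WT 1, WT 2 and WT 3. Psat1, the second, was at 3.32 and 3.35 in KO 2 and KO 3 and 2.83, 3.24 and 3.56 in WT. Psph, the last, was at 1.83 and 1.80 in KO 2 and KO 3 and 1.68, 2.01 and 2.05 in WT. For each of these 3 genes, both KO libraries fell inside the WT range. Limma gave 0.03 ± 0.13 for Phgdh, 0.13 ± 0.22 for Psat1 and -0.10 ± 0.18 for Psph (SE, adjusted p = 0.99998 each). Psph shares exon sequence with Cct6a on the opposite strand, and with no strand setting stated their reads cannot be told apart.

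Asns and Chac1, markers of the amino acid response, varied more within WT than between the groups. Asns was at 4.38 in KO 2 and 4.46 in KO 3, against 4.12, 4.53 and 5.04 in WT 1, WT 2 and WT 3. Chac1 was at 1.27 and 1.42 in KO 2 and KO 3, against 0.97, 1.36 and 1.71 in WT. The WT libraries alone spanned 0.917 for Asns and 0.734 for Chac1, with WT 1 lowest and WT 3 highest in both. Limma gave -0.14 ± 0.25 for Asns and 0.00 ± 0.23 for Chac1 (SE, adjusted p = 0.99998 each). The 95% intervals of all 8 genes besides Pycr1 lay between -0.76, the lower bound for Asns, and 0.65, the upper bound for Psat1. On this scale none of these 8 intervals reached -1.29, the difference for which Pycr1 was selected, so this is a description. The comparison depends on the assumed log2(abundance + 1) scale, since with 5 added before the log Pycr1 differed by -0.57.

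Short stretches of promoter are shown because Pycr1 shares an amino acid response sequence with Asns and Chac1, whose levels did not follow it. The letters TGATGNAA, the core to which ATF4 and its partners are known to bind, were searched on both strands of the RefSeq promoters (build GRCm38.p6, 250 bases before to 50 after each start). All 9 genes had a promoter in that table, and 3 of the 9 held the letters, against 4.51% of the 27025 genes in it. The bases below run 5′ to 3′ on the strand of the gene and end before the start, with the matching letters in capitals. Pycr1 is from chr11:120643749-120643998, minus strand, Asns from chr6:7693210-7693269, minus strand, and Chac1 from chr2:119351023-119351082, plus strand. In Chac1 the letters lie on the opposite strand.
Pycr1: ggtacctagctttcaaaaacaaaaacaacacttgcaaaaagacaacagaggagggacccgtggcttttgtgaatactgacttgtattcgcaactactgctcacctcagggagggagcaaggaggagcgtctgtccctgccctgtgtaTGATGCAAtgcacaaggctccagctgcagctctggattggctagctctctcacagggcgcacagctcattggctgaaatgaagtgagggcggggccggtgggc
Asns: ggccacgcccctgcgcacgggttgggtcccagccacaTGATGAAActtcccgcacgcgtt
Chac1: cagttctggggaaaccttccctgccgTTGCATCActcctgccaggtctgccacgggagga
The match begins 103 bases before the start of Pycr1, 23 before that of Asns and 193 before that of Chac1, each counted from the base next to the start. A match is a description of letters and does not show binding.

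Other ATF4 targets with the same letters were not called and had overlapping groups, as was true of most genes tested. Of 31 genes of the ATF4 list with a promoter in the table, 10 held the letters and 9 of those were tested. Apart from Pycr1 they ranged from -0.14 for Asns to 0.60 for Slc7a11, the cystine carrier, and the groups overlapped for each of these 8 genes. Over all genes tested, groups were separate with KO lower for only 3.75% and with KO higher for 9.83%. Slc7a11 was at 2.12 in KO 2 and 1.01 in KO 3, against 0.51, 1.63 and 0.75 in WT 1, WT 2 and WT 3, so it was high in KO 2 and WT 2. These are the libraries with Ddx3y and also those richest in leukocyte markers, whose median against the WT mean was 1.19 in KO 2, -0.35 in KO 3, -0.26 in WT 1, 0.68 in WT 2 and -0.49 in WT 3, and the part of either in this gene was not tested. Over the 475 tested genes with the letters in a promoter, the median difference was 0.02, beside 0.03 over 15154 tested genes with a promoter in the table. Groups were separate with KO lower for 24 of the 475 (5.05%), Pycr1 among them, and for 499 of the 15154 (3.29%). The gap between these shares was not tested.

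In the whole ATF4 list of 35 genes, 33 besides Pycr1 were tested and 0 were called in either direction. Groups did not overlap for 1 gene with KO higher, Cebpg, a partner of ATF4, and for 1 with KO lower, Pycr1. Without Pycr1 the median was 0.04 and the lowest difference -0.14. Atf4 itself was at 5.72 and 5.81 in KO 2 and KO 3, against 5.85, 5.71 and 5.91 in WT 1, WT 2 and WT 3. The stress genes Ddit3 and Trib3 differed by -0.09 and 0.18, and Ddit4 by 0.38 with KO 3 high at 3.60. The 7 genes of the eIF2 alpha kinases and their partners, which act upstream of ATF4, ranged from -0.11 to 0.12, with 0 called.

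**Figure D2:**
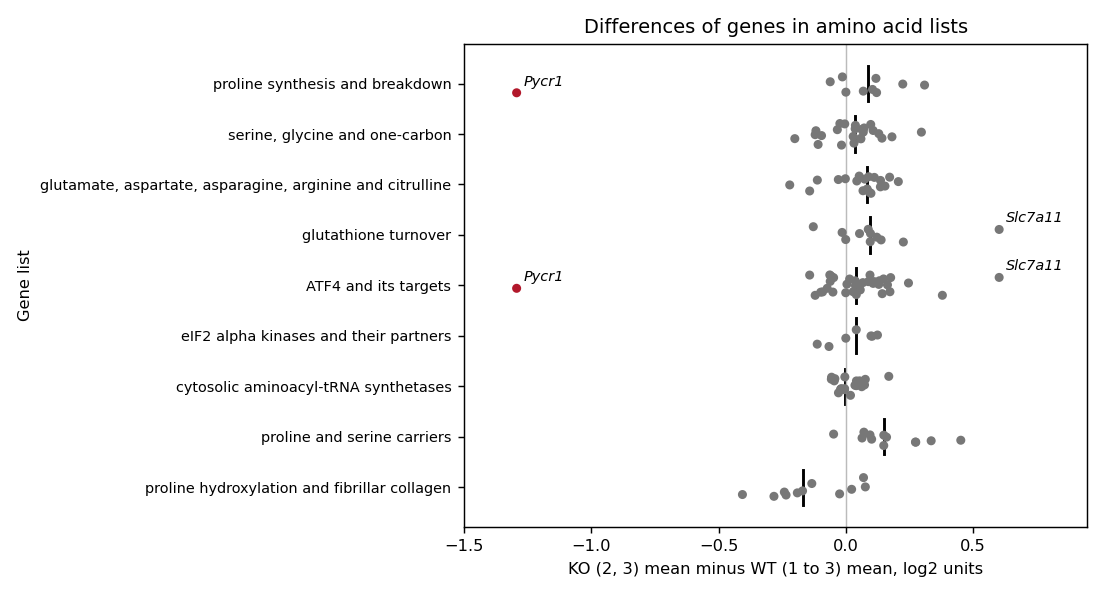
Each point is the KO mean (KO 2, KO 3) minus the WT mean (WT 1 to WT 3) of a tested gene in log2 units, by gene list, with a black bar at the list median and Pycr1 in red. Pycr1 lies at -1.29, while the other genes of these lists lie between -0.41 and 0.60.

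Across all 9 amino acid lists, 133 genes besides Pycr1 were tested and 0 were called by limma, with 0 at an unadjusted p under 0.05. Over all genes tested, limma gave an unadjusted p under 0.05 for only 494 of 22178. The lowest was P4ha2 at -0.41 and the highest Slc7a11 at 0.60, with a median of 0.05. Groups were separate with KO lower for 4 of the 133 (3.01%) and with KO higher for 13 (9.77%), beside 3.75% and 9.83% of all genes. These shares are near those of the whole table.

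Serine, glycine and folate genes made up 24 tested genes, with 0 called, a median of 0.04 and a range from -0.20 to 0.30. Mthfd1l, a mitochondrial folate enzyme, was the highest, at 2.26 and 2.37 in KO 2 and KO 3 and 1.85, 2.07 and 2.14 in WT 1, WT 2 and WT 3. Sfxn1, which carries serine into mitochondria, differed by 0.14 with separate groups. The 19 genes of glutamate, aspartate, asparagine, arginine and citrulline metabolism had 0 called and a median of 0.08, which was 0.018 without KO 3. Nags, which makes the activator of the first urea cycle enzyme, was separate and higher in KO by 0.15, and Glul, glutamine synthetase, differed by 0.17 with overlap. The 11 glutathione genes had 0 called and a median of 0.10, which was 0.017 without KO 3 and 0.048 without WT 2.

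Genes on the list of proline and serine carriers were mostly slightly higher in KO. Of 12 tested, 11 had a difference above 0, 3 were separate with KO higher beside 9.83% of all genes, 0 were called, and the median was 0.15. The list also holds Slc25a13 and Slc25a15, mitochondrial carriers of other amino acids, and Slc25a13 was among the 3 separate genes. By library the median of the carriers against the WT mean was 0.11 in KO 2, 0.22 in KO 3, 0.10 in WT 1, -0.10 in WT 2 and -0.06 in WT 3. That of the absorptive enterocyte markers was -0.11 in KO 2, 0.72 in KO 3, 0.14 in WT 1, -0.17 in WT 2 and 0.01 in WT 3, and their part in the carrier values was not tested. Slc6a7, a proline carrier best known from brain, was at 2.22 and 2.59 in KO 2 and KO 3 and 2.19, 1.88 and 1.80 in WT 1, WT 2 and WT 3, while KO 1 was lower after rescaling, at 1.72. Slc6a20a, the imino acid carrier of the gut brush border, differed by 0.28 with overlap. Slc1a5, a carrier of neutral amino acids, was at 5.15 in both KO 2 and KO 3 and 4.97, 4.998 and 5.04 in WT.

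Several genes that use proline in collagen had lower values in KO without passing. Of 11 genes for proline hydroxylation and fibrillar collagen, 8 were below 0, 3 were separate with KO lower beside 3.75% of all genes, 0 were called, and the median was -0.17. Without KO 2 the median was -0.019 and without WT 2 it was -0.059, so its size rests on these libraries. P4ha2, a subunit of prolyl 4-hydroxylase, was at 1.39 and 1.90 in KO 2 and KO 3 and 2.08, 2.02 and 2.06 in WT 1, WT 2 and WT 3. P4ha1, the related subunit, was at 1.81 and 1.61 in KO and 1.81, 2.20 and 1.97 in WT, and Col3a1 at 7.09 and 7.22 in KO and 7.24, 7.59 and 7.37 in WT. By library the median of this list against the WT mean was -0.19 in KO 2, -0.02 in KO 3, -0.16 in WT 1, 0.19 in WT 2 and -0.02 in WT 3. Among fibroblast markers, Mfap4, a matrix protein, was at 5.06 and 4.78 in KO 2 and KO 3 and 5.11, 5.77 and 5.20 in WT, with WT 2 highest. The median of the 6 fibroblast markers against the WT mean was -0.16 in KO 2, -0.30 in KO 3, -0.21 in WT 1, 0.37 in WT 2 and -0.15 in WT 3. Both medians were highest in WT 2, but KO 3 was lowest only for the fibroblast markers. The part of stromal content in the collagen list was not tested.

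The library pattern of the tRNA synthetases and of some amino acid response genes differed from that of Pycr1. The 20 cytosolic aminoacyl-tRNA synthetases, which load amino acids onto their tRNAs and include many ATF4 targets, had a median difference of 0.00 between the groups, with 0 called. By library their median against the WT mean was 0.10 in KO 2, -0.06 in KO 3, -0.13 in WT 1, -0.05 in WT 2 and 0.18 in WT 3. WT 1 was the lowest and WT 3 the highest WT library for 13 of these 20 genes and for 13 of 34 genes of the ATF4 list, against 15.1% of all genes tested. Of the 9 genes followed here, 5 had this order: Asns, Phgdh, Psat1, Psph and Chac1. Aldh18a1, Oat, Prodh and Pycr1 did not, and Prodh was highest in WT 1, as Pycr1 was. The ATF4 list genes Ddit3, Trib3 and Atf3 were also highest in WT 1. For Pycr1 the WT libraries spanned only 0.091, so its order among them says little. All of this is a description of 3 libraries.

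**Figure D3:**
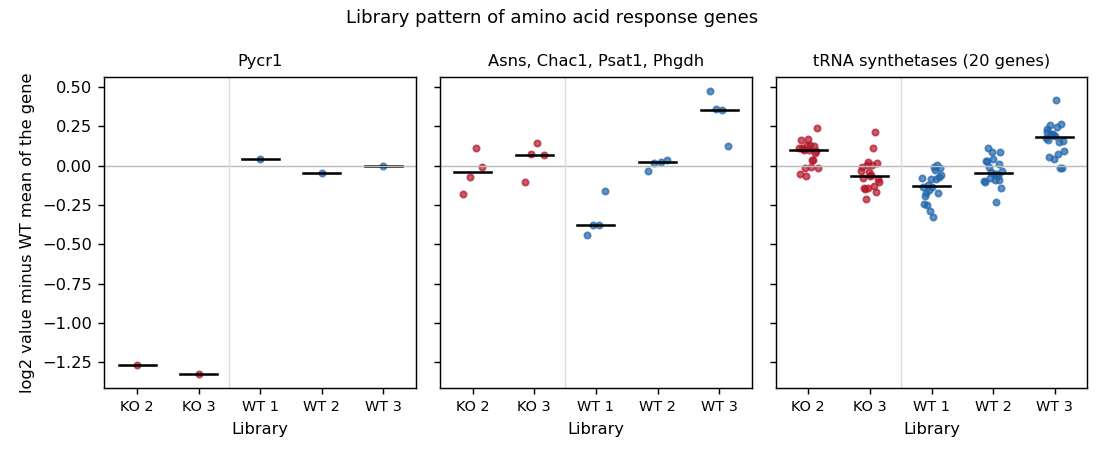
Log2 value minus the WT mean of the same gene, by library (red KO 2 and KO 3, blue WT 1 to WT 3), for Pycr1, for Asns, Chac1, Psat1 and Phgdh, and for the 20 cytosolic aminoacyl-tRNA synthetases, with black bars at the median. The synthetase median is highest in WT 3 at 0.18 and lowest in WT 1 at -0.13, whereas Pycr1 differs by group.

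The genes next to Pycr1 on the chromosome did not share its difference. Pycr1 (GENCODE vM21 on GRCm38, chr11:120635712-120643769, minus strand, protein-coding) overlaps no exon of another gene. Mafg, a small Maf transcription factor 2112 bases beyond its 3′ end, was at 3.61 and 3.85 in KO 2 and KO 3 and 3.87, 3.72 and 3.67 in WT 1, WT 2 and WT 3. Farther on that side, Sirt7, a nuclear deacetylase, differed by 0.08, and Pcyt2, an enzyme of phosphatidylethanolamine synthesis, by 0.05. On the other side Myadml2 (2262 bases away) and Notum, a secreted Wnt inhibitor, were at 0.26 or below in all 5 libraries, and Myadml2os was listed at 0 in all of them. The 54 other genes tested within 500 kb ranged from -0.24 to 0.26, with a median of 0.02. Groups were separate with KO lower for 0 of the 54, beside 3.75% of all genes, and with KO higher for 4, beside 9.83%.

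**Figure D4:**
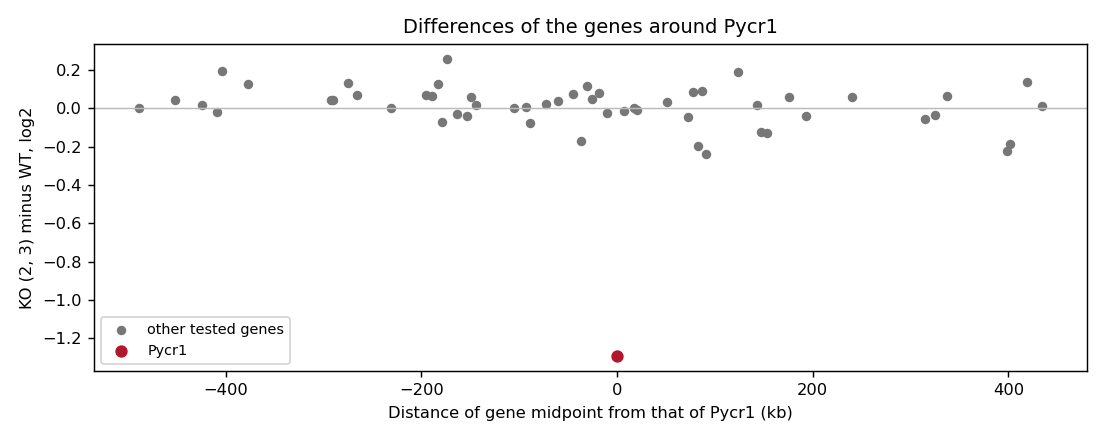
Difference of the KO mean (KO 2, KO 3) from the WT mean in log2 units for each tested gene within 500 kb of Pycr1, by distance of gene midpoints in kb. Pycr1 (red) lies at -1.29 and the 54 other genes (grey) between -0.24 and 0.26.

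The genes with the profile most like that of Pycr1 were not amino acid enzymes. Likeness was the root mean square difference of the deviations from the mean over the 5 libraries, with predicted genes left out. Zfp708, a zinc finger gene, was nearest at 0.182, and was listed at 0 in KO 2 and KO 3 and at 0.85, 1.15 and 1.10 in WT 1, WT 2 and WT 3. It was listed at 0 in KO 1 too, which covers its chromosome. Dnm1, a vesicle fission GTPase, followed at 0.337, Sval1 at 0.340, Fam220a at 0.361 and Rslcan18, another zinc finger gene, at 0.367. Dnm1 was at 4.01 and 4.26 in KO 2 and KO 3, against 5.03, 4.74 and 4.65 in WT. Zfp708 and Rslcan18 are neighbours on chromosome 13 that share exon sequence, so their reads may be split between them. Among the other 8 amino acid genes, Psph came nearest to Pycr1, at 0.606 and rank 2784, and Prodh was farthest, at 0.797 and rank 21015. These ranks are over all genes tested, predicted genes included. They follow from the same library values given above and are no further test.

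**Figure D5:**
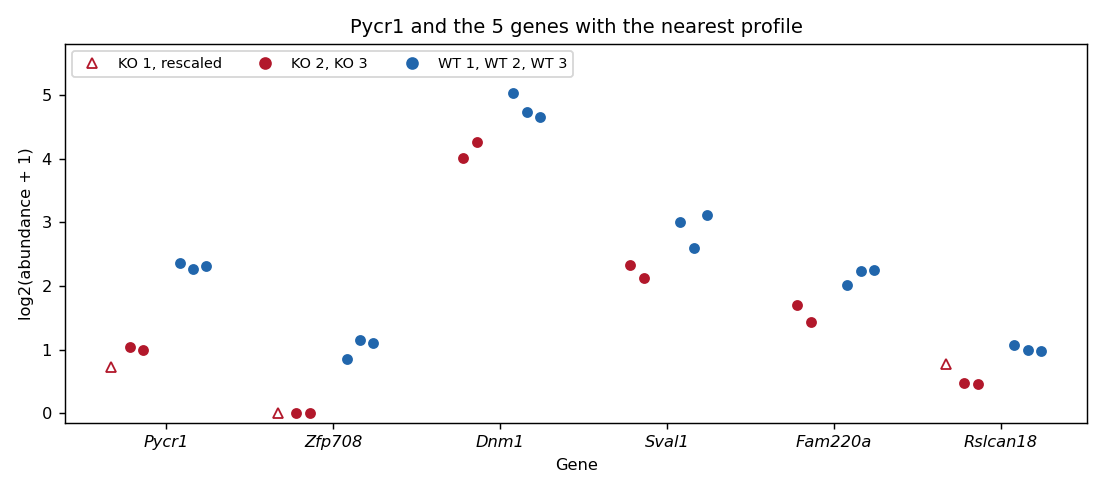
Log2 values of Pycr1 and of the 5 genes with the nearest profile, with KO 2 and KO 3 in red (left), WT 1 to WT 3 in blue (right) and KO 1 after rescaling as open triangles where it has values. These genes were chosen for their likeness to Pycr1, so their separation, such as 0 in both KO libraries and 0.85 to 1.15 in WT for Zfp708, is part of the choice.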

How the data were processed

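The authors deposited 1 table of log2 values for 6 libraries, taken here as log2(abundance + 1). The sources used here name no log base, abundance unit, aligner or counting tool, and the build is mm10 per the submitters' processing notes. Of 32245 rows, 26 with a date for a symbol were left out, and 31398 symbols were placed with GENCODE vM21. The 22178 genes above 0 in at least 3 of 6 libraries were tested. KO 2 and KO 3 were compared with WT 1 to WT 3 in R 4.3.3 using the 2-sided moderated test of limma 3.58.1 (variance trend on, no covariate), with Benjamini-Hochberg adjustment over all 22178 genes at a threshold of 0.05. Tested on simulated data of this comparison (22178 genes, 200 changed genes above the median level, 5 runs), limma recovered 49.2% of changes of 1 log2 unit and 91% of changes of 2, with a mean of 4.8 other calls per run. KO 1 was rescaled by the median ratio over 2160 genes at 4 or more. Depth is unknown, so no counting interval is given. The genes and lists were chosen with earlier results of these data known. Named genes were the 9, the proline list, up to 4 genes of smallest p per list, 3 neighbours on each side and the 5 nearest profiles. Some genes that the rule names are not reported here. Ddit3, Trib3, Atf4, Gm49380 and the single marker genes were named after their values were seen. Alternatives covered filters, added constants, log base, scaling, KO 1, the replicate block, variance models and each library left out.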

Additional observations from a re-analysis of the deposited data

How the results depend on the processing

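Pycr1 was chosen for its values, with every KO library below every WT library. Its sign was thus all but fixed in advance and is no test. The Pycr1 difference of -1.29 kept its sign under all 18 alternatives. It was -1.86 with 0.1 added before the log, -0.57 with 5 added, -1.87 if the table holds natural logs, -1.35 with median centring, -1.39 with KO 1 rescaled and -1.21 with KO 1 as deposited. It was -1.32 to -1.27 over left-out libraries. The 1 gene called became 0 with no filter, the stricter filter, 0.1 added, KO 1 as deposited, a term for sex (added after seeing the data) and any left-out library (0 to 0). The other 8 genes had 0 calls under every alternative, as did the list genes tested, which were 133 except with no filter (134) and the stricter filter (122). Differences near 0 changed sign: Chac1 to 0.026 with 0.1 added and 0.0081 with the sex term; Phgdh to -0.026 with centring and -0.023 with quantile normalization; and, where zeros of KO 1 are kept, Oat to -2.15, Phgdh to -1.07 and Psat1 to -0.98, which those zeros bring. Over left-out libraries the ranges were -0.16 to 0.024 for Aldh18a1, -0.36 to 0.095 for Asns, -0.19 to 0.18 for Chac1, -0.051 to 0.093 for Phgdh, -0.059 to 0.31 for Psat1, 0.037 to 0.17 for Oat, 0.20 to 0.42 for Prodh and -0.21 to -0.026 for Psph. List medians, Pycr1 included where listed, ran from 0.0081 to 0.098 for proline, -0.0029 to 0.080 for serine, 0.018 to 0.089 for glutamate and related genes, 0.017 to 0.11 for glutathione, 0.0063 to 0.093 for ATF4, -0.054 to 0.090 for the eIF2 alpha kinases, -0.083 to 0.10 for the synthetases, 0.11 to 0.22 for the carriers and -0.25 to -0.019 for collagen. With the replicate block, 0 genes were called, Pycr1 was at -1.27, Phgdh at -0.051 and Psat1 at -0.059. WT 1 is alone in its block, so these differences equal those with WT 1 left out and are no separate check. Deviations correlated at 0.28 for number 2 and 0.33 for number 3. With 2 shared numbers this does not show pairing. Depth being unknown, the counting error of low genes such as Chac1 cannot be given.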
